A study of Homo sapiens with 16 samples.

Results

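Late phase P15 of the gemcitabine-resistant line GRC1 was compared with parental phase P0, the T24 bladder cancer cells from which it was made. T24 is an established human cell line, grown here in DMEM with fetal bovine serum. GRC1 is 1 of several lines obtained from T24 by repeated rounds of gemcitabine exposure and recovery, and the libraries of P15 are labelled as the line after 15 rounds and those of P0 as having gone through none. That P15 descends from the same T24 cells is taken from the labels and was not tested, since genotypes were not analysed here. GSTM1, KRT19 and TXNIP, chosen after their values were seen, had mean log2 values of 3.07 to 6.43 in P0, P3 and P7 and of 0.04 or lower in P15. Of these, KRT19 was lower already in P3 (5.658) and P7 (3.735) than in P0 (6.428). GSTM1 was also lower in P3 and P7 than in P0, and TXNIP was higher. Chromosomes 11 and 19 were shifted as a whole in P15, as described with the chromosomes. Each difference of P15 from P0 therefore holds for these libraries as labelled. Each phase had 4 libraries of total RNA, reverse transcribed from poly(dT) primers. The labels do not state whether the 4 libraries came from separate cultures, so the p-values measure only the spread between libraries, which may be technical. GRC1 is a single selected line, so an effect of the drug cannot be told apart from what the surviving cells happened to carry. All sample titles carry the letters NT, which the labels do not explain, and whether gemcitabine was present when the cells were collected is not given in the sources used here. Of the 39007 genes in the table, the 13388 with a mean above 1 CPM over the 8 libraries of both phases were compared, where CPM is a gene's count scaled by all counts of its library to a common total. Next to this limit, NPTN-IT1 (1.0017 CPM), RP11-379B18.5 (1.0022) and TRHDE (1.0032) were kept, and DLL4 (0.99793) and LINC00648 (0.99767) were not.

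Gemcitabine is a cytidine analogue that enters cells through nucleoside transporters, is phosphorylated first by deoxycytidine kinase and then by further kinases, and stops DNA synthesis both by being built into DNA and by inhibiting ribonucleotide reductase. Cytidine deaminase and 5′-nucleotidases remove the drug or its phosphates. Urothelial cells, from which bladder carcinoma arises, are epithelial cells marked by keratins and by the transcription factors GATA3, FOXA1 and PPARG. In epithelial-mesenchymal transition such cells lose keratins and junctions and take up vimentin and matrix-degrading enzymes.

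Values are log2 of CPM plus 1, and every difference given below as log2 is on this scale, which understates the change of weakly expressed genes. The size of the smallest steps between values gave total counts of 34.4 to 37.9 M per library in P0 and 35.9 to 45.1 M in P15. Genes with a value above 0 numbered 21519 to 22006 per library in P0 and 22695 to 23127 in P15, a difference of 1193.5 (exact permutation test, two-sided, p = 0.0286, the smallest that 4 libraries against 4 allow). The P15 libraries also had more genes at 1 CPM or above, 13125 to 13355 against 12873 to 12995. The 10 largest genes took 6.99% ± 0.07 of all CPM in P0 (SD, n = 4) and 5.63% ± 0.15 in P15. The median standard deviation of a gene between libraries of a phase was 0.08 in both phases. Names near to each other in sequence, such as the IFITM, GAGE, MAGEA and HLA genes or ribosomal proteins and their pseudogenes, can share reads, and the way such reads were counted is not given in the sources used here.

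Late phase P15 differed from P0 over much of the transcriptome. With limma and Benjamini-Hochberg adjustment over the 13388 genes, 3232 genes had an adjusted p below 0.05 together with an absolute log2 difference of at least 1, and these are the genes said below to have risen or fallen. Of them, 1737 (13%) rose and 1495 (11.2%) fell. The 4 libraries of P15 did not overlap with the 4 of P0 for any of these genes, but this was also so for 5790 (43.2%) of all genes tested in the upward and 4907 (36.7%) in the downward direction. Without the fold threshold 11566 genes (86.4%) passed, so the threshold and not the replicate error set the count. The median absolute log2 difference over all tested genes was 0.5175 and the median difference 0.065. At a log2 difference of at least 4, 71 genes were higher and 105 lower in P15, and at 6 or more the counts were 9 and 28. The genes that rose took 3.984% of all CPM in P0 and 13.49% in P15. The genes that fell took 16.03% in P0 and 4.342% in P15.

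**Figure D1:**
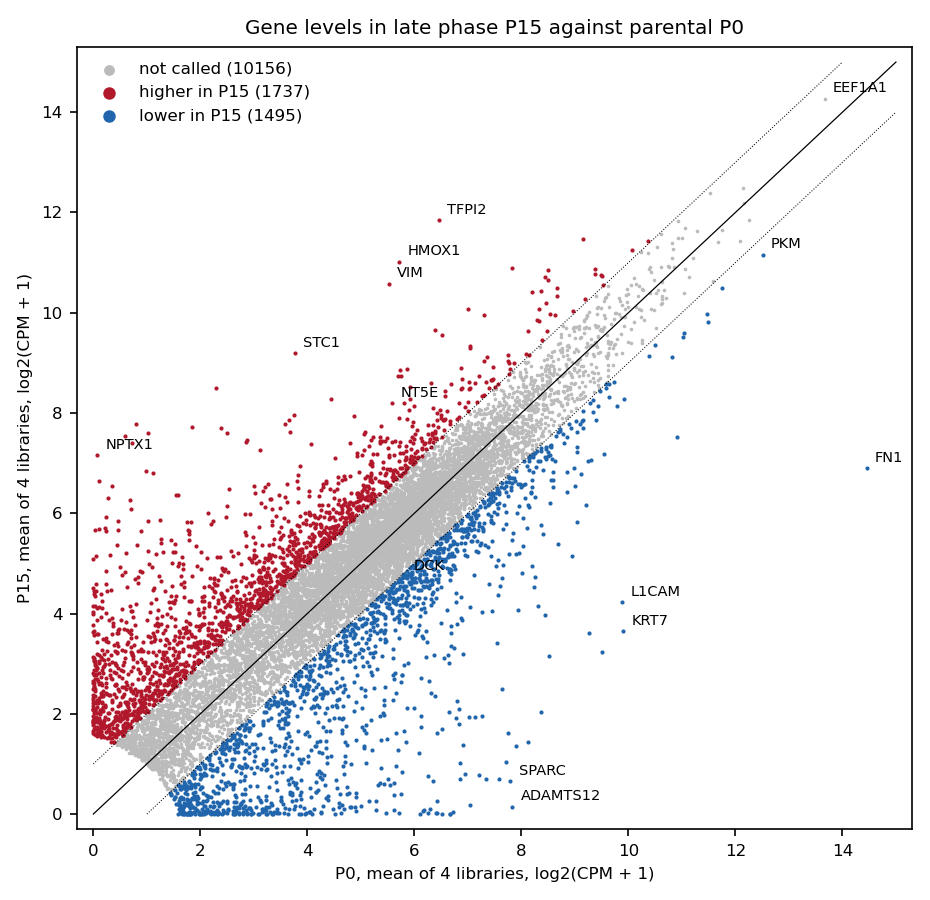
Mean log2(CPM + 1) of 4 libraries in P0 (horizontal axis) and in P15 (vertical axis), 1 point per gene tested, with the line of equality and dotted lines at a log2 difference of 1. The 1737 genes that rose lie above the upper dotted line, the 1495 that fell lie below the lower one, and FN1 is the gene farthest below it among those of high expression.

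The levels of these genes were also compared with early phase P3 and intermediate phase P7 of the same line, with 4 libraries each. For 1677 of the genes that rose (96.55%) all P15 libraries lay above all 12 libraries of P0, P3 and P7, against 4719 of the 13388 genes tested. For 1419 of those that fell (94.92%) they lay below all 12, against 3801 of the genes tested. The P0 libraries were among the 12 and also defined the rise or fall, so these shares are a description. They do not date the changes, since a gene that rose in steps is counted too. In the order P0, P3, P7 and P15, mean log2 values of NT5E were 5.582, 7.322, 7.570 and 8.195. Those of VIM were 5.525, 7.475, 9.005 and 10.580, and those of CCL5 were 0.703, 5.678, 5.068 and 6.092. PRAME, in contrast, was at 0.107, 0.090, 0.073 and 6.647.

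The 12 genes that rose most had mean log2 values of 0.08 to 2.29 in P0. NPTX1, a secreted pentraxin of synapses (chromosome 17, 80466834 to 80477843 of GRCh38), had log2 values of 0.00, 0.00, 0.23 and 0.08 in the P0 libraries and 7.17, 7.22, 7.19 and 7.04 in those of P15. PRAME, a cancer-testis antigen (chromosome 22, 22547701 to 22559361), was at 0.21, 0.22, 0.00 and 0.00 in P0 and at 6.65, 6.68, 6.63 and 6.63 in P15. SERPINB2, the plasminogen activator inhibitor type 2 (chromosome 18, 63871692 to 63903888), was at 2.17, 2.24, 2.59 and 2.14 in P0 and at 8.49, 8.51, 8.38 and 8.62 in P15. The ranges of the phases lay more than 5 log2 units apart for each of these genes. Their log2 differences were 7.08 (NPTX1), 6.54 (PRAME) and 6.22 (SERPINB2), with standard errors of 0.11, 0.08 and 0.09 and adjusted p-values of 1.477e-25, 1.504e-27 and 1.814e-26 (limma with Benjamini-Hochberg adjustment). PRAME was still at 0.09 ± 0.03 in P3 and 0.07 ± 0.07 in P7 (log2, SD, n = 4), whereas SERPINB2 was at 6.49 ± 0.08 in P3 and 1.67 ± 0.17 in P7.

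CACNG8 and CACNG7 encode auxiliary subunits of AMPA receptors and lie next to each other on chromosome 19 (53962937 to 53990215 and 53909278 to 53943950). CACNG8 was at 0.34, 0.44, 0.30 and 0.29 in P0 and at 6.47, 6.55, 6.64 and 6.49 in P15. CACNG7 was at 0.07, 0.41, 0.43 and 0.15 in P0 and at 6.30, 6.33, 6.32 and 6.28 in P15. Both were below 0.2 on average in P3 and P7, and rose by 6.195 and 6.04. IL24, a cytokine of the IL-10 family, went from 0.94, 1.11, 1.39 and 0.64 to 7.66, 7.73, 7.31 and 7.67, and was at 2.97 ± 0.06 in P3 and 1.13 ± 0.12 in P7. The other genes among the 12 that rose most were CLDN16, TENM2, MMP3, LAT2, an adaptor protein of immune cells, PADI2, a peptidylarginine deiminase, and SCG2, a granin of secretory granules, with log2 differences of 5.71 to 6.98.

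The 12 genes that fell most had mean log2 values of 6.66 to 14.45 in P0. FN1, fibronectin (chromosome 2, 215360440 to 215436073), had log2 values of 14.57, 14.30, 14.45 and 14.47 in P0 and 6.96, 6.79, 7.03 and 6.83 in P15, from a mean of 22390 CPM to 118.9 CPM. ADAMTS12, a secreted metalloprotease (chromosome 5, 33523535 to 33892019), was at 7.85, 7.78, 7.83 and 7.85 in P0 and at 0.44, 0.07, 0.00 and 0.09 in P15. STAT6, the transcription factor of IL-4 signalling (chromosome 12, 57095408 to 57132139), was at 7.33, 7.34, 7.33 and 7.36 in P0 and at 0.81, 0.68, 0.59 and 0.68 in P15. The lowest P0 library was above the highest P15 library by over 6 log2 units in all of these genes. Their log2 differences were -7.55 (FN1), -7.68 (ADAMTS12) and -6.65 (STAT6), with standard errors of 0.06, 0.06 and 0.04 and adjusted p-values of 8.659e-32, 4.923e-31 and 1.06e-32 (limma with Benjamini-Hochberg adjustment). FN1 was at 13.62 ± 0.08 in P3 and 14.17 ± 0.05 in P7, and STAT6 at 6.98 ± 0.05 and 7.24 ± 0.04.

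RAC2, a small GTPase known from blood cells, was at 8.11, 8.22, 8.08 and 8.12 in P0 and at 1.48, 1.35, 1.34 and 1.57 in P15. CADM1, a cell adhesion molecule on chromosome 11, was at 7.06, 6.96, 7.08 and 7.03 in P0 and at 0.26, 0.25, 0.15 and 0.06 in P15. UNC13D, a priming factor of granule exocytosis, was at 7.94, 7.93, 7.79 and 7.93 in P0 and at 1.48, 1.29, 1.45 and 1.19 in P15. All 3 kept a mean of at least 6.35 in P3 and P7. Their log2 differences were -6.70 (RAC2), -6.85 (CADM1) and -6.55 (UNC13D), each with a standard error of 0.05. SPARC, IFI27, ARAP3 and KRT81 (log2 differences of -7.14 to -6.66) and SLC17A9, which was listed at 0 in P15, were also among the 12 genes that fell most.

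**Figure D2:**
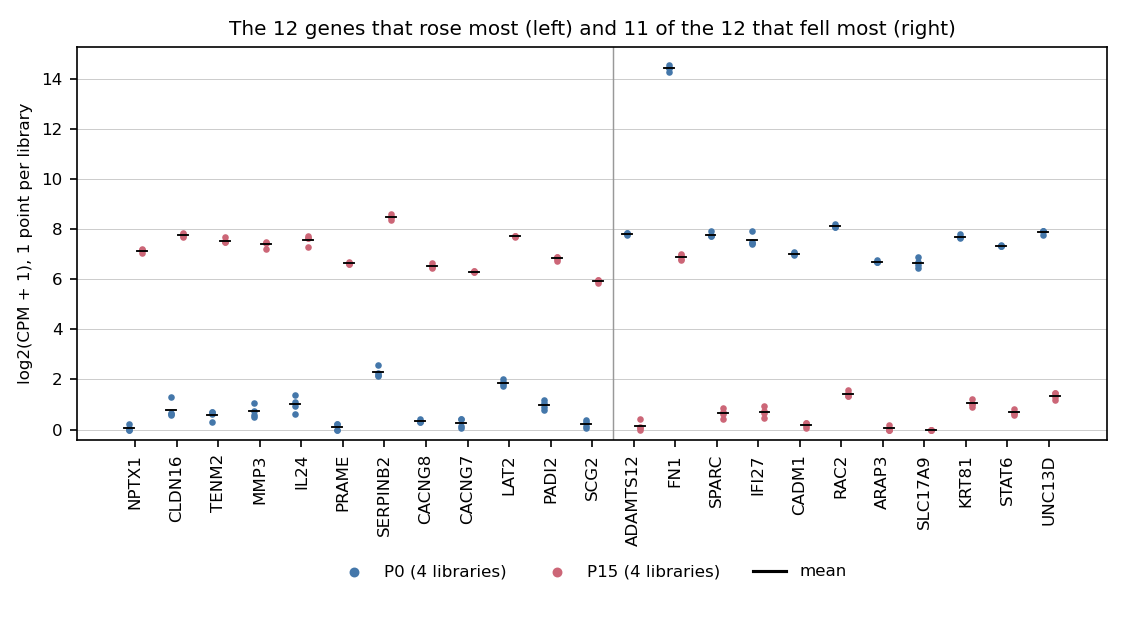
Log2(CPM + 1) of the 12 genes that rose most (left of the line) and 11 of the 12 that fell most (right), 1 point per library for P0 and P15, with the mean as a black bar. For every gene the 4 points of a phase lie close together. That the phases do not overlap was a condition for choosing these genes.

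Some genes were switched rather than shifted. A total of 107 genes had at least 10 CPM in every P0 library and below 1 CPM in every P15 library, and 76 genes did the reverse. Of the genes tested, 45 were listed at 0 in all P15 libraries, 10 of them with a mean of at least 10 CPM in P0. Among the most abundant of these were SLC17A9, a vesicular nucleotide transporter (100.7 CPM in P0), PRKCDBP, a caveolar protein (67.49 CPM), and SLC2A10, a glucose transporter (21.93 CPM). By the estimated total counts, 1 count corresponds to 0.0222 to 0.0279 CPM in the P15 libraries, which would be listed above 0. A gene listed at 0 thus had no counts by this estimate, which does not exclude a level too low to be sampled. In the P15 libraries 3 counts correspond to 0.0665 to 0.0836 CPM. Conversely, 28 tested genes were listed at 0 in all P0 libraries, 7 of them with at least 10 CPM in P15. These were led by TSHZ3, a zinc finger transcription factor (32.86 CPM in P15), COL3A1, collagen type III (21.81 CPM), GAGE1 (16.68 CPM) and CT45A10 (15.39 CPM), both cancer-testis antigens, and C17orf51 (14.91 CPM). All of these counts refer to single libraries of 1 line, and no fold is given against a level of 0.

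The 250 bases before the transcription start are shown for 4 of these genes, a pair that was higher in P15 and a pair that fell, because they show the range of the density of CpG dinucleotides, the sites of DNA methylation, among the genes with the largest differences. They are read from the RefSeq promoter table of GRCh38.p14, in the 5′ to 3′ direction of the gene, with each CpG in capitals.
SERPINB2 (chr18:63887455-63887704, plus strand, rose): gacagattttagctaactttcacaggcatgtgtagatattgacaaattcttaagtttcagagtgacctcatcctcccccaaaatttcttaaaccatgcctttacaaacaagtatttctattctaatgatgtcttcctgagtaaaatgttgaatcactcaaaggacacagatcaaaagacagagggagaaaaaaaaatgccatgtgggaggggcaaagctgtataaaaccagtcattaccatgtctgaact
TSHZ3 (chr19:31349437-31349686, minus strand, listed at 0 in P0): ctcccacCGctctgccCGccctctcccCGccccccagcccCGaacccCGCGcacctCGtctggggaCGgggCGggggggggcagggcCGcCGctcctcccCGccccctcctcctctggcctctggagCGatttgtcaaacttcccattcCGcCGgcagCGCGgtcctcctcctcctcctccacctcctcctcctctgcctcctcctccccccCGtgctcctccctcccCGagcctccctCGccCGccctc
ADAMTS12 (chr5:33891991-33892240, minus strand, fell): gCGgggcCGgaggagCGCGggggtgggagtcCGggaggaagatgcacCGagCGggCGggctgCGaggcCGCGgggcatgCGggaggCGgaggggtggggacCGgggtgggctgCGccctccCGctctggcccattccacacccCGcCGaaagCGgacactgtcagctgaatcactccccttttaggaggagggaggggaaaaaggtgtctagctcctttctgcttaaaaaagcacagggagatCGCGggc
FN1 (chr2:215436069-215436318, minus strand, fell): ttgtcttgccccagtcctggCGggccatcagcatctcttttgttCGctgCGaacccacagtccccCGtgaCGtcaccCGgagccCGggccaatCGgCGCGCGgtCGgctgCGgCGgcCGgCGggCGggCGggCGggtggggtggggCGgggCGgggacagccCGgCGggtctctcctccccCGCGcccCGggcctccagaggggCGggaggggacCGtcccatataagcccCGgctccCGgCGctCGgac

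SERPINB2 held no CpG in this stretch, whereas TSHZ3 held 21, ADAMTS12 21 and FN1 32. Over the 35114 starts of the table the median was 11, with quartiles of 3 and 23. The motif TGANTCA, to which AP-1 binds and which reads the same on both strands, was found in SERPINB2 and ADAMTS12 and in 6.57% of all starts. Among the 17 genes that rose most or were listed at 0 in P0, 9 had an entry, with 0 to 24 CpG, and among the 15 that fell most or were listed at 0 in P15, 7 had one, with 3 to 32. Only 73.1% of the genes tested had an entry, 70.5% of those that rose and 69.4% of those that fell, so a comparison of these sets would be void and none was made. Methylation was not measured in these libraries.

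The genes that handle gemcitabine changed unevenly. Of the nucleoside transporters of the SLC29 family, which carry nucleosides along their gradient, SLC29A2 and SLC29A4 rose. SLC29A2 was at 2.79, 3.14, 2.61 and 2.83 in P0 and at 5.56, 5.55, 5.78 and 5.61 in P15, a log2 difference of 2.78 (standard error 0.10, adjusted p = 7.84e-18, limma with Benjamini-Hochberg adjustment). SLC29A4, which also carries monoamines, went from 0.70 ± 0.12 (SD, n = 4) to 3.60 ± 0.07. SLC29A1, the main equilibrative transporter, was the most abundant of the family in both phases, at 79.19 CPM in P0 and 134.5 CPM in P15, and its log2 difference of 0.76 stayed below the threshold of 1. SLC29A3, a transporter of inner membranes, differed by -0.30. The concentrative transporters SLC28A1, SLC28A2 and SLC28A3 averaged below 1 CPM in both phases and were not tested.

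Of the 7 kinases that activate the drug, only DCK fell, 14.3% against 11.2% of all genes tested. DCK, the deoxycytidine kinase that carries out the first phosphorylation (chromosome 4, 70992538 to 71030914), was at 5.76, 5.96, 5.85 and 5.74 in P0 and at 4.75, 4.71, 4.69 and 4.79 in P15. The phases did not overlap, and the mean went from 55.89 to 25.64 CPM, a log2 difference of -1.09 (standard error 0.05, adjusted p = 3.6e-16, limma with Benjamini-Hochberg adjustment). This lies close to the threshold of 1, and with a pseudocount of 5 CPM the log2 difference was -0.99. Against a null of 1 log2 unit, limma's treat test gave an adjusted p of 0.1805 for DCK. In P3 and P7 DCK was at 6.07 ± 0.07 and 6.003 ± 0.07, above all P15 libraries. TK2, the mitochondrial kinase that also accepts deoxycytidine, differed by -0.73, and CMPK1, the kinase of the second step, by 0.015 (adjusted p = 0.6032, limma with Benjamini-Hochberg adjustment). NME1, NME2, NME3 and NME4, nucleoside diphosphate kinases, differed by 0.27 to 0.65, and reads of NME1 and NME2 may not be told apart.

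Of 9 genes of inactivation tested, 3 rose (33.3%, against 13% of all genes tested) and 2 fell (22.2%, against 11.2%). NT5E, the 5′-nucleotidase CD73 of the cell surface, was at 5.56, 5.54, 5.66 and 5.57 in P0 and at 8.16, 8.18, 8.20 and 8.24 in P15. NT5M, the mitochondrial deoxyribonucleotidase, was at 0.53, 0.47, 0.30 and 0.61 in P0 and at 3.61, 3.70, 3.66 and 3.76 in P15, a log2 difference of 3.21 (standard error 0.09, adjusted p = 9.81e-21, limma with Benjamini-Hochberg adjustment). CDA, the cytidine deaminase, rose by 1.25 but remained at 3.285 CPM in P15, and with a pseudocount of 5 CPM its log2 difference was 0.51. Its adjusted p in limma's treat test was 0.214. NT5C2, a cytosolic 5′-nucleotidase, fell from 5.89 ± 0.05 to 4.36 ± 0.03. SAMHD1, which hydrolyses deoxynucleoside triphosphates, was at 7.16, 7.20, 7.21 and 7.17 in P0 and at 5.29, 5.10, 5.20 and 5.28 in P15, a log2 difference of -1.97 (standard error 0.04, adjusted p = 2.592e-23, limma with Benjamini-Hochberg adjustment). DCTD, NT5C, NT5C3A and NT5C3B differed by -0.41 to 0.36.

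Among the 10 targets and competitors of the drug, only TK1, the cytosolic thymidine kinase, fell, by a log2 difference of -1.16. This share of 10% lay near the 11.2% of all genes tested. RRM1 and RRM2, the large and small subunits of ribonucleotide reductase, differed by -0.75 and -0.25, and RRM2B, the p53-dependent small subunit, by 0.34. TYMS, DUT, POLA1 and POLE, which act in thymidylate supply and replication, had log2 differences of -0.68 to -0.37, and CTPS1, the main CTP synthetase, differed by 0.01 (adjusted p = 0.761, limma with Benjamini-Hochberg adjustment).

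**Figure D3:**
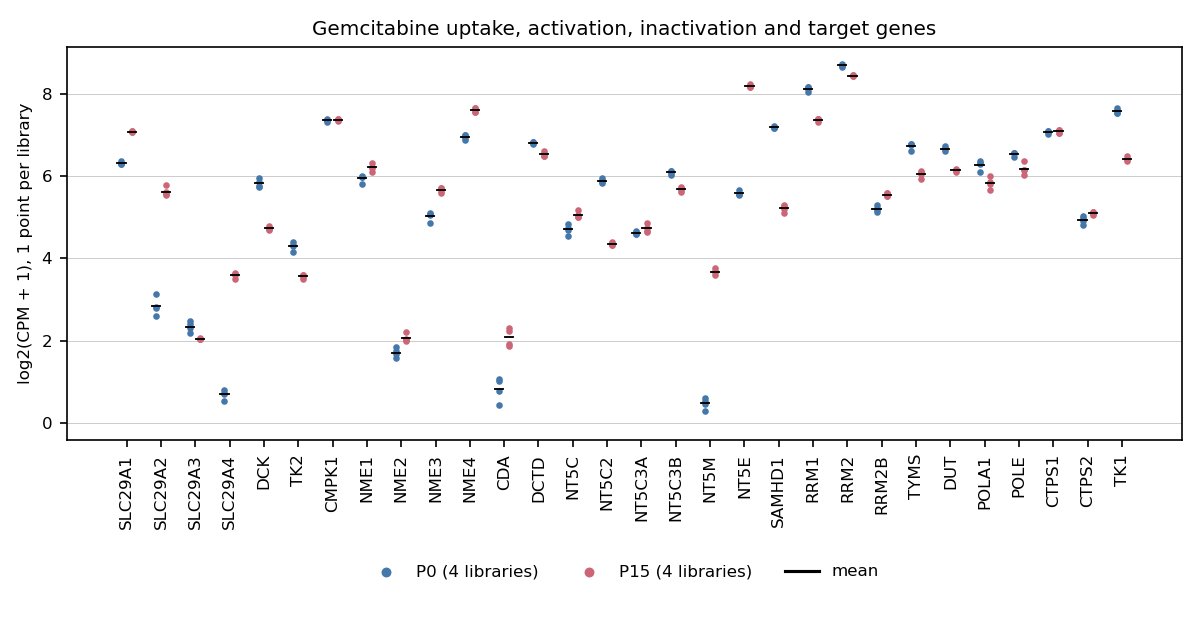
Log2(CPM + 1) of the tested genes of gemcitabine uptake, activation, inactivation and targets, 1 point per library, with the mean of each phase as a black bar. SLC29A2, SLC29A4, NT5M and NT5E sit higher in P15, DCK, NT5C2, SAMHD1 and TK1 lower, and CMPK1 and CTPS1 overlap.

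More genes of urothelial differentiation fell than rose, while those of epithelial-mesenchymal transition did not move as 1 group. Of 11 urothelial genes tested, 6 fell (54.5%, against 11.2% of all genes tested) and 2 rose (18.2%, against 13%). The median log2 difference was -1.83, against 0.065 over all genes. KRT7, a keratin of simple and transitional epithelium, was at 9.92, 9.82, 9.92 and 9.95 in P0 and at 3.59, 3.66, 3.59 and 3.73 in P15, a log2 difference of -6.26 (standard error 0.04, adjusted p = 1.243e-33, limma with Benjamini-Hochberg adjustment). KRT19 was at 6.51, 6.41, 6.39 and 6.40 in P0 and was listed at 0 in 3 of the P15 libraries and at 0.07 in the other one. KRT8 fell by 3.06, whereas its partner KRT18 was at 8.88 ± 0.03 in P0 and 9.31 ± 0.07 in P15. PPARG fell from 5.98 ± 0.05 to 4.15 ± 0.11. KRT17, a basal keratin, and UPK1A, a uroplakin, were the genes of the list that rose, KRT17 from 0.23 ± 0.14 to 4.02 ± 0.26, while UPK1A differed by 0.46 with a pseudocount of 5 CPM. The labelled tissue of origin is bladder, and UPK1B and UPK3A were below 0.1 CPM in both phases.

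Of the 8 transcription factors of epithelial-mesenchymal transition tested, FOXD1, SNAI1, ZEB1 and FOXC2 rose and ZEB2 fell. The shares were 50% and 12.5%, against 13% and 11.2% of all genes tested. FOXD1, a forkhead factor, was at 3.58, 3.63, 3.80 and 3.69 in P0 and at 7.38, 7.63, 7.73 and 7.72 in P15. SNAI1, a repressor of E-cadherin, rose by 1.83 to 7.707 CPM, but had a log2 difference of 0.975, below the threshold, with a pseudocount of 5 CPM, where 2 of these factors passed the threshold. CDH1, E-cadherin itself, was at 0.04094 CPM in P0 and 0.04844 CPM in P15 and so was near 0 before the first round. Of the 18 junction genes tested, 4 rose (CLDN16, TJP3, PKP2 and OCLN) and 6 fell, among them ESRP2, PKP3, EPCAM, ESRP1 and JUP. The shares were 22.2% and 33.3%, against 13% and 11.2% of all genes tested. With a pseudocount of 5 CPM, TJP3 (0.84) and EPCAM (-0.84) stayed below the threshold. In the list of the mesenchymal cytoskeleton, VIM, vimentin, rose from 45.06 to 1531 CPM. It was the only 1 of 10 members to rise (10%, against 13% of all genes tested), and 5 fell (50%, against 11.2%). MYL9, a regulatory myosin light chain, was at 6.47, 6.68, 6.48 and 6.59 in P0 and at 3.29, 3.04, 3.14 and 2.95 in P15. CALD1, TPM1, TPM2 and TAGLN, actin-binding proteins of contractile cells, fell as well, and the median of the list was -1.05.

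More matrix genes fell than rose, and their summed level was lower in P15. Of 31 genes of the extracellular matrix tested, 13 fell (41.9%, against 11.2% of all genes tested) and 5 rose (16.1%, against 13%). The median was -0.945. The summed level of the list went from 30660 ± 1708 to 5258 ± 108 CPM (SD, n = 4), of which FN1 made up the larger share in P0. SPARC, a matricellular protein, was at 7.79, 7.92, 7.73 and 7.74 in P0 and at 0.87, 0.41, 0.64 and 0.70 in P15. TGFBI, a matrix protein induced by TGF-beta, was at 6.84, 7.02, 6.80 and 6.77 in P0 and at 0.81, 0.55, 0.59 and 0.85 in P15, a log2 difference of -6.16 (standard error 0.06, adjusted p = 7.37e-29, limma with Benjamini-Hochberg adjustment). LOX, the lysyl oxidase that crosslinks collagen, fell by 3.74. The 5 genes that rose were the fibrillar collagens COL3A1, COL5A1 and COL1A1, and POSTN and VCAN, proteins laid down with them. Other collagens, COL5A2, COL6A1, COL6A2, COL7A1 and COL12A1, were among the genes that fell, and COL1A2 was at 0.247 CPM in P15. COL3A1 was listed at 0 in every P0 library and was at 4.57, 4.50, 4.57 and 4.40 in P15. COL1A1 went from 5.012 to 23.97 CPM.

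The 26 proteases and inhibitors tested moved in both directions. Of them, 11 rose (42.3%, against 13% of all genes tested) and 8 fell (30.8%, against 11.2%). MMP3, stromelysin, was at 0.51, 0.73, 1.07 and 0.59 in P0 and at 7.46, 7.47, 7.22 and 7.48 in P15, and MMP1, MMP2, MMP10, MMP11 and MMP16 rose too. PLAU, the urokinase, and PLAUR, its receptor, rose by 1.16 and 2.59. MMP14, a membrane-bound activator of MMP2, fell by 2.73, and TIMP3, an inhibitor of metalloproteases, fell by 4.75 (standard error 0.06, adjusted p = 1.181e-26, limma with Benjamini-Hochberg adjustment). TFPI2, a protease inhibitor of the Kunitz type and 1 of the 5 genes that gained most CPM, was at 6.41, 6.56, 6.48 and 6.40 in P0 and at 11.92, 11.87, 11.71 and 11.91 in P15, from 87.28 to 3703 CPM. Of 15 integrins, 4 rose (ITGA10, ITGB4, ITGA6 and ITGB2) and 4 fell (ITGB8, ITGA11, ITGB3 and ITGA2). Each share was 26.7%, against 13% and 11.2% of all genes tested. ITGA10, a collagen receptor, was at 1.63, 1.81, 1.47 and 1.45 in P0 and at 6.38, 6.30, 6.54 and 6.25 in P15. ITGB4, the integrin of hemidesmosomes, went from 3.613 to 54.05 CPM, and ITGB8, an activator of latent TGF-beta, from 28.97 to 1.806 CPM.

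Interferon-response genes were mostly lower in P15. Of 36 tested, 19 fell (52.8%, against 11.2% of all genes tested) and 4 rose (11.1%, against 13%). The median log2 difference was -1.04. IFITM3, which blocks virus entry at endosomes, was at 8.45, 8.69, 8.41 and 8.55 in P0 and at 3.08, 3.20, 3.21 and 3.11 in P15, a log2 difference of -5.38 (standard error 0.05, adjusted p = 1.123e-29, limma with Benjamini-Hochberg adjustment). Its neighbour IFITM2 went from 6.84, 6.94, 6.79 and 6.84 to 1.00, 1.02, 0.83 and 1.21. BST2, MX1, MX2, OAS1, OAS2, IRF7 and IRF1 were among the others that fell. The genes that rose were OASL (2.15), IFIT1 (1.25), IFIT2 (1.04) and IFIH1 (1.00), and IFIH1, the RNA sensor MDA5, was at the threshold. Without P15 replicate 3 only 2 of these 4 passed it. These 4 had been higher than in P0 already in P3, where IFIT2 was at 7.52 against 5.09 in P0 and 6.13 in P15.

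APOBEC3G, a cytidine deaminase that restricts retroviruses, was the 1 of 4 APOBEC3 genes tested that fell (25%, against 11.2% of all genes tested). It was at 6.35, 6.63, 6.33 and 6.35 in P0 and at 0.20, 0.33, 0.35 and 0.18 in P15, whereas APOBEC3C and APOBEC3F, on the same stretch of chromosome 22, differed by -0.86 and -0.45. In antigen presentation 8 of 19 genes fell (42.1%, against 11.2% of all genes tested) and 1 rose, HLA-DMA (5.26%, against 13%). CD74, the invariant chain of class II molecules, was at 5.47, 5.70, 5.51 and 5.46 in P0 and at 0.77, 0.64, 0.42 and 0.48 in P15. PSMB10 and PSMB8, subunits of the immunoproteasome, B2M, the light chain of class I molecules, and NLRC5, an activator of class I genes, fell too. Of 28 cytokines and chemokines, 9 rose and 9 fell (32.1% each, against 13% and 11.2% of all genes tested), with a median of 0.075. CXCL8, a neutrophil attractant, was at 8.94, 9.32, 9.23 and 9.10 in P0 and at 11.47, 11.41, 11.44 and 11.56 in P15. CXCL5, which binds the same receptor, was at 6.09, 6.30, 6.10 and 6.18 in P0 and at 0.14, 0.07, 0.00 and 0.03 in P15. CCL5 went from 0.6505 to 67.6 CPM, and the interleukin 1 genes IL1A and IL1B fell.

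Genes that respond to ERK signalling rose more often than they fell. Of 20 tested, 11 rose (55%, against 13% of all genes tested) and 3 fell (15%, against 11.2%), with a median of 1.30. EGR1, an immediate early transcription factor, was at 2.15, 1.84, 2.67 and 2.89 in P0 and at 7.29, 7.49, 8.37 and 7.65 in P15, with a wider spread in both phases than most genes (log2 difference 5.31, standard error 0.21, adjusted p = 2.261e-17, limma with Benjamini-Hochberg adjustment). IER3, an early response gene, was at 7.73, 7.92, 7.83 and 7.84 in P0 and at 10.70, 10.88, 11.03 and 10.94 in P15. The feedback inhibitors SPRY1, SPRY2, SPRY4, DUSP1, DUSP2, DUSP5 and DUSP7 rose, while DUSP4, SPRED1 and CCND1, which encodes cyclin D1, fell, with log2 differences of -1.94, -1.10 and -1.12. DUSP6, ETV1, ETV4 and ETV5 of the same list were not among the genes that rose or fell. Of 15 AP-1 factors, ATF3, JUNB, BATF3, FOS and JUND rose (33.3%, against 13% of all genes tested) and JDP2 and BATF2 fell (13.3%, against 11.2%). ATF3 was at 1.51, 1.80, 2.13 and 1.56 in P0 and at 5.70, 5.81, 5.90 and 5.92 in P15, and JUNB went from 24.87 to 106.9 CPM. Among 30 receptor tyrosine kinases and ligands, 9 rose (30%, against 13% of all genes tested) and 6 fell (20%, against 11.2%). FGFR4, a receptor of fibroblast growth factors, rose from 2.424 to 49.65 CPM, and EPHB2, an ephrin receptor, fell from 109.7 to 12.94 CPM. NRP1, a coreceptor of semaphorins and VEGF, fell from 166.6 to 22.92 CPM.

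In the pathways of TGF-beta and BMP, 12 of 37 genes rose (32.4%, against 13% of all genes tested) and 5 fell (13.5%, against 11.2%). BMP6, a ligand, was at 0.28, 0.04, 0.30 and 0.66 in P0 and at 5.25, 5.26, 4.94 and 5.20 in P15 (log2 difference 4.84, standard error 0.11, adjusted p = 4.602e-22, limma with Benjamini-Hochberg adjustment). BMP7 and the receptor BMPR1B rose as well, as did the targets ID1 (2.04), ID3 (1.73) and ID4 and the transcription factor SMAD9 (2.37). The antagonists CHRD, NOG and BAMBI were among the genes that rose too. BMP4 went from 3.65, 3.79, 3.59 and 3.58 to 0.54, 0.66, 0.64 and 0.57. INHBB, the beta B chain of activins and inhibins, fell from 15.31 to 0.03547 CPM, and TGFB2 and BMP2 fell. In the WNT pathway 8 of 32 genes rose (25%, against 13% of all genes tested) and 6 fell (18.8%, against 11.2%). The median of -0.014 turned to 0.018 under quantile normalization. NKD2, an inhibitor of Dishevelled, was listed at 0 in every P0 library and was at 3.50, 3.64, 3.69 and 3.68 in P15, and NOTUM, RNF43 and NKD1, which also restrain the pathway, rose. The ligands WNT10B, WNT4 and WNT9A rose too, whereas the ligands WNT7B and WNT5A fell. WNT7B was at 6.61, 6.61, 6.61 and 6.74 in P0 and at 2.98, 3.26, 2.82 and 2.95 in P15. The antagonist DKK1 fell from 106.1 to 9.003 CPM, and DKK3 fell as well.

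Of 33 targets of ATF4, a transcription factor of the amino acid and stress response, 13 rose, none fell and 20 were not called. The share that rose was 39.4%, against 13% of all genes tested, and the median was 0.637. DDIT4, an inhibitor of mTORC1, was at 6.24, 6.55, 6.38 and 6.39 in P0 and at 9.56, 9.69, 9.71 and 9.67 in P15. SESN2, which senses leucine, was at 4.71, 4.85, 4.85 and 4.76 in P0 and at 7.30, 7.43, 7.45 and 7.42 in P15. ASNS, the asparagine synthetase, rose by 1.78 and TRIB3, a pseudokinase that restrains ATF4, by 1.09. Of 20 chaperones and folding factors of the endoplasmic reticulum, only HERPUD1 (1.43) and HSPA5 (1.28) rose, 10% against 13% of all genes tested. HSP90B1 was higher by 0.93. Among 22 p53 targets and inhibitors of cyclin-dependent kinases, 7 rose (31.8%, against 13% of all genes tested) and only FAS fell (4.55%, against 11.2%). The genes that rose were GADD45A, SESN2, GADD45B, CDKN2B, BTG2, PLK3 and CDKN2D, of which SESN2 is also among the ATF4 targets. The 14 genes not called include the p53 targets CDKN1A, MDM2, ZMAT3, XPC and FDXR. GADD45A, a growth arrest gene, was at 5.70, 5.62, 5.91 and 5.74 in P0 and at 8.63, 8.67, 8.83 and 8.83 in P15. In the BCL2 family, BCL2A1, BBC3 and MCL1 rose and BMF fell among 15 genes tested, BMF not when P15 replicate 4 was left out. The shares were 20% and 6.67%, against 13% and 11.2% of all genes tested. BBC3, which encodes the pro-apoptotic protein PUMA, was at 3.53, 3.36, 3.33 and 3.63 in P0 and at 6.26, 6.47, 6.34 and 6.41 in P15, and the anti-apoptotic MCL1 went from 353.1 to 1175 CPM.

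The list of NRF2 targets and glutathione genes held 7 genes that rose and 6 that fell among 35. The shares were 20% and 17.1%, against 13% and 11.2% of all genes tested. HMOX1, heme oxygenase 1, was at 5.69, 5.74, 5.79 and 5.62 in P0 and at 11.07, 11.11, 10.85 and 11.04 in P15, from 51.4 to 2077 CPM, and had been at 6.14 ± 0.07 in P3 and 6.09 ± 0.06 in P7. NFE2L2, the gene of NRF2, rose by 1.26, TXNRD1 by 1.09 and SLC7A11 by 1.05, whereas NQO1, another target, differed by -0.89. MGST2, a microsomal glutathione transferase, was at 4.90, 4.90, 5.02 and 4.85 in P0 and at 0.49, 0.51, 0.47 and 0.24 in P15. GSTM1 was at 3.97, 4.08, 4.13 and 4.04 in P0 and at 0.00, 0.07, 0.08 and 0.00 in P15, and at 3.07 ± 0.15 in P3 and 3.16 ± 0.22 in P7. FTH1, the ferritin heavy chain, was 1 of the 5 genes that lost most CPM, from 2863 to 904.7 CPM.

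Of 42 genes of the proliferation list tested, 10 fell (23.8%, against 11.2% of all genes tested), none rose and 32 were not called. The median was -0.32. PCNA, the sliding clamp of DNA polymerases, was at 8.57, 8.60, 8.65 and 8.56 in P0 and at 6.53, 6.46, 6.59 and 6.51 in P15, a log2 difference of -2.07 (standard error 0.03, adjusted p = 1.468e-25, limma with Benjamini-Hochberg adjustment). MCM4, a subunit of the replicative helicase, was at 8.61, 8.41, 8.61 and 8.55 in P0 and at 6.67, 6.56, 6.77 and 6.63 in P15. MCM2, MCM3, MCM5, CDC6, E2F1 and CCNE2 fell with them, and MKI67 fell by 1.09. Of 40 DNA repair and checkpoint genes, 2 rose (5%, against 13% of all genes tested) and 1 fell (2.5%, against 11.2%). ERCC1, of nucleotide excision repair, was at 5.96, 6.02, 6.01 and 5.97 in P0 and at 8.10, 8.17, 8.15 and 8.17 in P15, and BRCA1 fell from 86.97 to 31.87 CPM. XRCC4, of DNA end joining, rose by 1.17, with a log2 difference of 0.99 under a pseudocount of 5 CPM.

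Among 65 cytoplasmic ribosomal proteins, 3 rose (4.62%, against 13% of all genes tested), RPS29 and RPL18 among them, and none fell. The list as a whole stood higher, with a median of 0.477 and a summed level of 58150 ± 1306 CPM in P0 and 77200 ± 2668 in P15 (SD, n = 4). The elongation factors EEF1A1 and EEF2 gained 6808 and 2429 CPM, with log2 differences of 0.61 and 0.87 that stay below the threshold, except that EEF1A1 reached 1.02 under quantile normalization. Under the same normalization RPL18 had a log2 difference of 0.89 and the list a median of 0.318. Of 42 genes of oxidative phosphorylation, NDUFV2 rose (2.38%, against 13% of all genes tested), at a low level of 2.979 CPM in P15, and none fell. With a pseudocount of 5 CPM the log2 difference of NDUFV2 was 0.56. NDUFS7, another subunit of complex I, differed by 0.95 and by 1.05 without P0 replicate 2. Of 27 genes of DNA methylation and chromatin, SMARCA2, SMARCA4 and HDAC1 fell, 11.1% against 11.2% of all genes tested. SMARCA2 and SMARCA4 are the alternative ATPases of the SWI/SNF complex with log2 differences of -1.43 and -1.11. HDAC1, a histone deacetylase, was at 8.39, 8.49, 8.47 and 8.43 in P0 and at 7.14, 7.05, 7.16 and 7.10 in P15.

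In glycolysis and hypoxia, 5 of 38 genes rose (13.2%, against 13% of all genes tested) and 7 fell (18.4%, against 11.2%). STC1, a secreted glycoprotein induced by hypoxia, went from 12.7 to 583.6 CPM, while SLC2A3, a glucose transporter, went from 3.83, 3.89, 3.72 and 3.73 to 0.07, 0.30, 0.22 and 0.57. PKM, pyruvate kinase, had the largest loss of CPM after FN1, from 5833 to 2289 CPM, with a log2 difference of -1.35, and ADM, adrenomedullin, fell by 3.09. In sterol and fatty acid synthesis, 8 of 35 genes rose, among them MVD and MSMO1, enzymes of cholesterol synthesis, and 2 fell. The shares were 22.9% and 5.71%, against 13% and 11.2% of all genes tested, and the median was 0.46. Several of the genes that rose lay close to the threshold, and 4 were left when each library was shifted to the same median.

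Of 39 lysosomal genes, 9 fell and 3 rose (CTSC, CTSL and SMPD1), with a median of -0.343. The shares were 23.1% and 7.69%, against 11.2% and 13% of all genes tested. CTSS, cathepsin S, was at 5.52, 5.86, 5.58 and 5.53 in P0 and at 0.38, 0.41, 0.47 and 0.29 in P15, and CTSZ fell from 458.9 to 112 CPM. Of 11 ABC transporters of drug efflux tested, ABCA3 rose (9.09%, against 13% of all genes tested) and ABCB4 and ABCA1 fell (18.2%, against 11.2%). Both falls were lost with a pseudocount of 5 CPM, where the log2 difference went from -2.01 to -0.69 for ABCB4 and from -1.52 to -0.85 for ABCA1. ABCB1, the multidrug transporter P-glycoprotein, differed by -0.10 (adjusted p = 0.2451, limma with Benjamini-Hochberg adjustment), and ABCC1 by 0.21. Of 12 genes of retinoid metabolism, 5 fell (41.7%, against 11.2% of all genes tested) and 2 rose (16.7%, against 13%). DHRS3, a retinaldehyde reductase, was at 6.39, 6.44, 6.41 and 6.47 in P0 and at 1.66, 1.72, 1.42 and 1.67 in P15, and at lower levels of 0.21 ± 0.12 in P3 and 0.85 ± 0.07 in P7.

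Cancer-testis antigens, which are normally expressed in germ cells and silent elsewhere, rose in 8 of the 9 members tested, with a median of 3.10. The 9 members are those of 30 in the table that passed the limit of 1 CPM, which a gene high in P15 alone could pass, so the count is no measure of the family. MAGEA12 was at 0.56, 0.41, 0.58 and 0.56 in P0 and at 4.79, 4.71, 4.72 and 4.84 in P15. GAGE1 was listed at 0 in every P0 library and was at 4.31, 4.10, 4.04 and 4.11 in P15. MAGEA3 rose by 3.08 and its close paralog MAGEA6 fell by 1.07, and reads of this pair may not be told apart. Among 15 genes of neuronal adhesion and synapses, 6 rose and 6 fell (40% each, against 13% and 11.2% of all genes tested). L1CAM, a neural cell adhesion molecule, was at 9.88, 9.88, 9.85 and 9.92 in P0 and at 4.25, 4.31, 4.21 and 4.13 in P15, a log2 difference of -5.66 (standard error 0.03, adjusted p = 4.087e-33, limma with Benjamini-Hochberg adjustment), and ROBO1, a receptor of Slit proteins, rose by 3.55. Of 26 HOX genes, which set position along the body axis, 9 fell and 2 rose. The shares were 34.6% and 7.69%, against 11.2% and 13% of all genes tested. HOXC10 was at 1.87, 1.92, 1.70 and 1.68 in P0 and at 5.44, 5.54, 5.33 and 5.52 in P15, and HOXB2 rose as well. The genes that fell were HOXB5, HOXB6, HOXB7, HOXB8, HOXB13, HOXA5, HOXA10, HOXA13 and HOXC6.

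**Figure D4:**
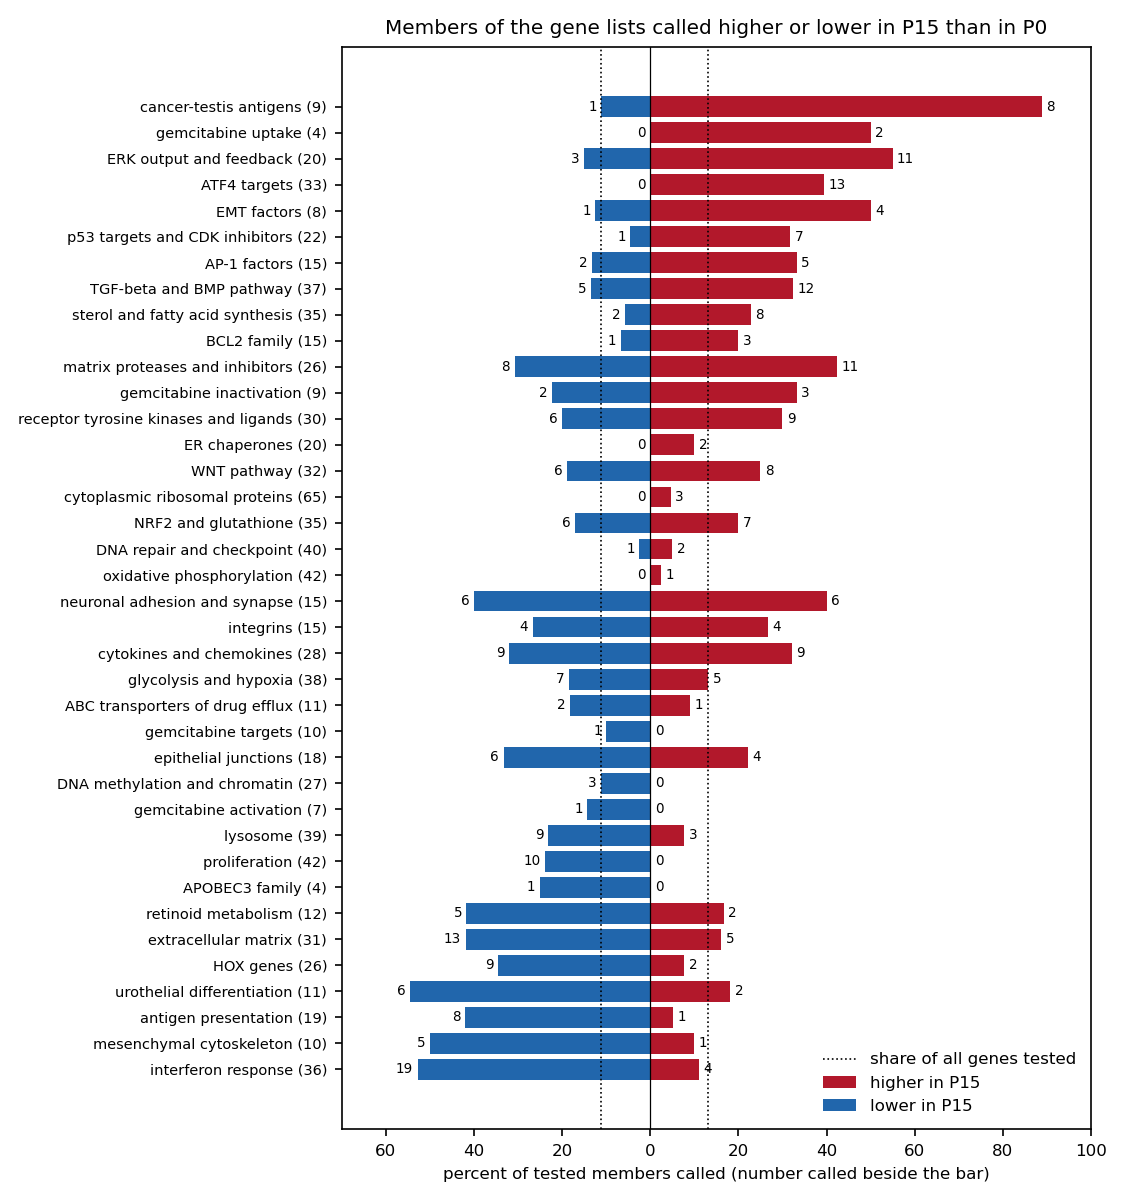
Percent of the tested members of each gene list that rose (right, red) or fell (left, blue) in P15 against P0, with the number of members tested in parentheses, the number called beside each bar, and dotted lines at the shares over all genes tested, 13% and 11.2%. Interferon response has 19 members on the left and 4 on the right, and ATF4 targets have 13 on the right and none on the left.

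The changes were not spread evenly over the chromosomes. On chromosome 11, 207 of 693 tested genes fell (29.9%, against 11.2% of all genes) and 47 rose. On chromosome 19, 227 of 896 rose (25.3%, against 13%) and 37 fell. The median log2 difference was -0.525 on chromosome 11 and 0.419 on chromosome 19. Taken library by library as the median deviation from the P0 mean of each gene, chromosome 11 stood at -0.550, -0.545, -0.510 and -0.533 in P15 and between -0.087 and -0.058 in P3 and P7. Chromosome 19 stood at 0.402, 0.427, 0.472 and 0.420 in P15 and between -0.083 and 0.013 in P3 and P7. All libraries of P15 thus lay outside the range of the 12 earlier libraries on both chromosomes, but this was also so on others. Chromosome 6 stood at 0.293 to 0.325 in P15 and at 0.047 or lower before. Chromosome 20 stood at -0.261 to -0.205 in P15 and at -0.117 or higher before. On chromosome 14 the ranges overlapped (-0.002 to 0.032 in P15, -0.007 to 0.009 in P0). Chromosomes 11 and 19 had the lowest and the highest median log2 difference of all chromosomes. Chromosome 20 (20.2% of genes lower) and chromosome 10 (18% lower) were next for genes that fell. Neighbouring genes are not independent, DNA copy number was not measured, and its part in these values was not tested.

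Of 11728 windows of 20 neighbouring tested genes, the window with the lowest median was at the start of chromosome 11 (236966 to 727727), from PSMD13 to EPS8L2. In it, 11 genes fell, none rose and 19 of 20 had a negative difference, with a median of -1.50 against a 1st percentile of -0.874 over all windows. It holds IFITM1, IFITM2, IFITM3 and IRF7 of the interferon list, the junction gene PKP3 and HRAS, which encodes a small GTPase upstream of ERK and differed by -0.82. The window with the highest median, 1.45, was on chromosome 19 (49114324 to 49673916), from LIN7B to BCL2L12, where 13 genes rose and none fell. It holds RRAS, a GTPase related to HRAS (2.29), the calcium-activated channel gene TRPM4 (2.54), RCN3 (4.55) and the ribosomal protein gene RPL13A (0.91). At least 10 of the 20 genes fell in 71 windows, and at least 10 rose in 97. Neighbouring windows overlap and share most of their genes, so these are not counts of separate regions.

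**Figure D5:**
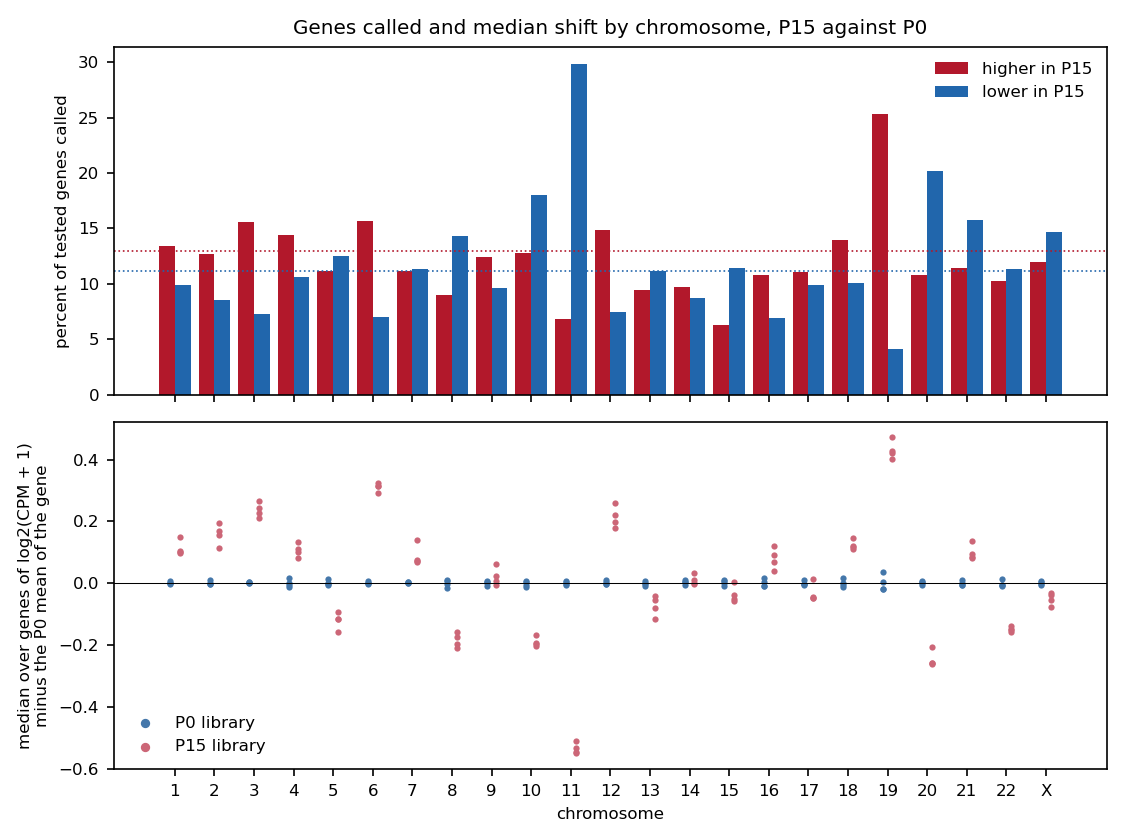
Percent of tested genes that rose or fell per chromosome, with dotted lines at the shares over all genes (upper panel), and the median over the genes of a chromosome of log2(CPM + 1) minus the mean of the gene in P0, 1 point per library (lower panel). Chromosome 11 stands out with 29.9% of genes lower and P15 libraries between -0.550 and -0.510, and chromosome 19 with 25.3% higher and P15 libraries between 0.402 and 0.472.

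Markers of other cell types were checked as sets. Epithelial markers summed to 2075 to 2153 CPM in P0 and 673 to 750.5 CPM in P15, with KRT18 as the only tested member that did not fall. Of the 8 fibroblast markers, COL3A1 and COL1A1 rose and accounted for nearly all of the summed 46.6 to 51.7 CPM in P15 (7.26 to 8.45 in P0), while DCN was listed at 0 in both phases and LUM, PDGFRA and THY1 were at or below 0.13 CPM. Leukocyte markers summed to 6.16 to 8.56 CPM in P0, nearly all from CD14, and 0.0778 to 0.237 CPM in P15, with CD3E at 0 in both phases and PTPRC at 0 in P0 and 0.01425 CPM in P15. Endothelial markers summed to 6.10 to 8.06 CPM in P0 and 0.515 to 1.09 CPM in P15, the larger share in P0 from CDH5. Of the neural crest and melanocyte markers, MITF rose by 1.18, a call lost with a pseudocount of 5 CPM (0.895) and in limma's treat test with Benjamini-Hochberg adjustment (adjusted p = 0.1275), and MLANA was below 0.3 CPM in both phases. Hepatocyte and erythroid markers stayed at or below 0.223 CPM in every library.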

How the data were processed

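RNA sequencing values of T24 cells at phase P0 and of their resistant derivative GRC1 at phases P3, P7 and P15 were used, with 4 libraries per phase. Reads had been mapped by the authors to GRCh38 with STAR (2.6.1a in the submitters' processing notes) and assigned to genes with featureCounts. For 39007 gene symbols, the authors deposited CPM on the log2 scale, after a pseudocount of 1 and with 2 decimals. The strand setting and the annotation release are not given in the sources used here. The quantile normalization and median centring that the methods name are not in these values. Of the names, 27 are dates, the trace of a spreadsheet, 22 of them tested, and 2 names occur in duplicate.

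From these values, limma 3.58.1 in R 4.3.3 was fitted with 1 coefficient per phase over all 16 libraries and a trend in the prior variance, and P15 was set against P0 for the 13388 genes above a mean of 1 CPM. Genes were called at a Benjamini-Hochberg adjusted p below 0.05 and an absolute log2 difference of at least 1. The fit was tested on simulated data. Single values per library were compared with an exact permutation test over the 70 arrangements of 4 libraries against 4. Summaries were made in Python 3.11.15 with numpy 2.4.6, pandas 2.3.3 and scipy 1.17.1, and figures with matplotlib 3.10.9. Levels of genes in CPM are not scaled by gene length. Positions are those of GENCODE version 44 on GRCh38, to which 12181 (90.98%) of the tested symbols matched.

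The genes compared, the gene lists and the tests were chosen with earlier results of these data known. Genes were named as those with the 12 largest and the 12 smallest log2 differences among called genes whose libraries did not overlap between the phases. Also named were all members of the gemcitabine lists and the 3 members with the largest difference of each other list. The rest were the 5 that gained and the 5 that lost most CPM, the 5 most abundant genes listed at 0 in either phase, and the cell type markers above 1 CPM. Further list members, and the values given for them, were picked after their values were seen. Replicate numbers are those of the sample descriptions, which differ from the numbers in the sample titles for 6 of the 8 libraries. The alternatives were other filters, pseudocounts and scalings, a replicate block, other variance and fold settings, and each library left out in turn. Some of the genes that the naming rule selects are not reported here.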

Additional observations from a re-analysis of the deposited data

Results flagged for a closer look

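In the named genes, 325 groups of 4 libraries with any spread were examined for a library far from the other 3, where the gap to the nearest of them exceeds Dixon's critical share of the whole range at the 95% level. There were 25 such values, and chance gives about 1 in 20 groups, or 16. Parentheses give the side on which the library lay and its gap as a share of the range. Replicate 1 of P0 stood apart for NME1 (lower, 0.895) and KRT19 (higher, 0.833). In replicate 2 of P0 this was so for POLE (lower, 1.000), ZEB2 (higher, 0.900), APOBEC3G (higher, 0.933), LAPTM5 (higher, 0.905) and MAGEA12 (lower, 0.882). In replicate 3 of P0 this was so for CLDN16 (higher, 0.901) and UNC13D (lower, 0.933). In replicate 4 of P0 this was so for WNT7B (higher, 1.000) and CD14 (higher, 0.925). In replicate 1 of P15 this was so for ARAP3 (higher, 1.000) and BATF3 (higher, 0.895). In replicate 2 of P15 this was so for KRT19 (higher, 1.000), PSMB10 (higher, 0.971) and RPL18 (higher, 0.875). The library with most of these values, replicate 3 of P15, stood apart for MMP3 (lower, 0.923), IL24 (lower, 0.833), RRM1 (lower, 0.875), GATA3 (lower, 0.870), APOBEC3F (higher, 0.913), INHBB (lower, 0.857) and PKM (higher, 1.000). In replicate 4 of P15 this was so for MGST2 (lower, 0.852) and CDH5 (higher, 0.875). In IL24 and MMP3 the P15 replicate 3 was 7.31 and 7.22, and the other 3 were 7.66 to 7.73 and 7.46 to 7.48, while the highest P0 library was at 1.39 and 1.07. In ARAP3, KRT19, INHBB and CDH5 the values of P15 that stood apart were all at 0.29 or lower on the log2 scale.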

How the results depend on the processing

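The counts of genes that rose and fell were within 1.5 times of 1737 and 1495 under 19 of the 21 alternatives planned and the 1 added. Without the fold threshold 11566 genes passed (6231 higher, 5335 lower), and with a pseudocount of 5 CPM 1976 did (984 higher, 992 lower). Leaving out each library in turn gave 3209 to 3243 genes, 1711 to 1748 higher and 1478 to 1507 lower, and leaving out P0 replicate 2 together with P15 replicate 3, an alternative chosen after seeing the data, gave 3249. Libraries of P0 and P15 with the same replicate number did not deviate together (Pearson correlations across genes of -0.12 to 0.06). Such correlations cannot show whether libraries of the same number were handled together. With a replicate block the count was 3232 under both numberings. Quantile normalization moved the share of higher genes among the called ones from 53.7 to 50.6%. Of 168 named genes, 125 kept their direction and side of the threshold throughout. CMPK1 and CTPS1, which differed little, reversed to -0.013 and -0.018 when each library was shifted to the same median. CTPS1 was also at -0.020 in the added alternative and ranged from -0.009 to 0.026 with single libraries left out. Windows of 40 genes in which at least 20 fell made up 0.0532% of windows, and those in which at least 20 rose 0.408%, against 0.605 and 0.827% with 20 genes. Windows of either size overlap, so these are not shares of separate regions. Of 76 counts of list members that rose or fell, 10 were within 1.5 times under all alternatives and 66 moved under at least 1. Without the fold threshold 51 moved, with 1 CPM in each of the 8 libraries, which removes genes that were switched off, 21, with a pseudocount of 5 CPM 17 and with the treat test 9. They moved by over 1.5 times when 1 library was left out for interferon genes that rose (4, and 2 without P15 replicate 3), for BCL2 family genes that fell (1, and 0 without P15 replicate 4), for oxidative phosphorylation (1 higher, and 2 without P0 replicate 2) and for chromatin genes (0 higher, and 1 without P0 replicate 1, P0 replicate 4 or P15 replicate 2). The cause of these changes was not tested. Depth sets a limit for genes listed at 0, since 3 counts correspond to 0.0665 to 0.0872 CPM.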

Other observations

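The genes in this paragraph were picked after their values were seen. On chromosome 20, DIDO1, a chromatin protein, fell by 1.95 near SLC17A9, which was listed at 0 in P15, and YTHDF1, an RNA reader on its other side, fell by 1.25. GID8, which lies between DIDO1 and SLC17A9, had a log2 difference of -0.75. Long non-coding RNAs made up 352 of the tested genes that matched GENCODE, and 71 of them rose and 51 fell. They were 4.514% of the matched genes that rose and 3.742% of those that fell, against 2.89% of those tested. BIRC3, an inhibitor of apoptosis induced by NF-kappa B, rose by 3.06, from 5.69 to 8.74, and was at 6.10 in P3 and 5.11 in P7. TXNIP, an inhibitor of thioredoxin, was at 4.08 ± 0.15 in P0 (log2, SD, n = 4), at 5.47 in P3 and at 5.24 in P7, and was listed at 0 in all P15 libraries.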
